A study of Mus musculus with 6 samples.

Results

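The genes described here are 45 laminins, matrix glycoproteins, proteoglycans and matrix cross-linking enzymes, of 23366 genes in the count table. They were chosen by symbol, as genes of the basement membrane and the interstitial matrix other than collagens, with the proteoglycans of brain matrix included. The rule uses no counts, but it was written with earlier results of these data known. The RNA-seq libraries came from granule neurons of the cerebellum in culture, taken from C57BL/6 mice at postnatal day 7 and enriched on a Percoll gradient. On day 1 in vitro the cultures received lentivirus carrying either empty pLKO.1 (control, n = 3) or pLKO.1 with an shRNA against Kdm6b, a demethylase of lysine 27 on histone H3 (knockdown, n = 3). The labels give 1 hairpin sequence for the knockdown and describe the cultures as receiving BDNF in some cases, without saying which. Each group is described as a biological triplicate, with no statement on whether the replicates came from separate litters, so the spread behind each p-value may be technical.

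Basement membranes are thin sheets in which trimeric laminins and type IV collagen form networks that nidogens and the heparan sulfate proteoglycans perlecan (Hspg2) and agrin (Agrn) tie together. The interstitial matrix is built around fibronectin (Fn1), microfibrils of fibrillins and elastic fibres, which lysyl oxidases cross-link and small leucine-rich proteoglycans and matricellular proteins decorate. In the cerebellum the basement membrane at the pial surface and around vessels is made by meningeal, vascular and glial cells, while the matrix between neurons is rich in hyaluronan and the proteoglycans that bind it.

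All libraries had gene counts between 50326298 and 88214069, and the 10 highest genes took 5.39% to 12.6% of them, the most in control replicate 3. Kdm6b was at 257, 146 and 170.5 CPM (the count as a share of the TMM-scaled library size, in parts per 1000000) in control replicates 1 to 3 and at 88.8, 63.3 and 79.8 CPM in the knockdowns. The groups did not overlap. Its log2 fold change was −1.28 (SE 0.11) in a fit with replicate number as block (edgeR adjusted p = 0.0282) and −1.31 (SE 0.25) without it (edgeR adjusted p = 0.216).

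Matrix genes were lower in the knockdown libraries. Their summed level was 9817, 18330 and 21820 CPM in control replicates 1 to 3 and 4654, 8970 and 11890 CPM in knockdown replicates 1 to 3. The groups overlapped, since control replicate 1 was below knockdown replicate 3, but the knockdown was below the control of the same number in each of the 3 pairs. As a share of all gene counts the 45 genes took 0.988%, 1.82% and 2.03% of the controls and 0.472%, 0.899% and 1.26% of the knockdowns. Fn1 alone made up 12.8% to 26.7% of the counts of these genes in a library.

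Replicates of the same number deviated from their group means together, with correlations of 0.772, 0.709 and 0.701 across genes. The labels state no pairing. The fit that blocks on replicate number was added to the planned one because of these correlations. With the block, 23 of the 45 genes (51.1%) passed the test and all 23 fell (edgeR quasi-likelihood F test, adjusted p by Benjamini-Hochberg from 0.0282 to 0.0455), where 5.40% of the 15731 genes tested fell and 2.58% rose. Their log2 fold changes lay between −2.41 and −0.53, and 14 of them fell by at least 2-fold. Without the block none of the 45 passed (edgeR adjusted p from 0.216 to 0.964), in a fit where 0.00636% of all genes, 1 gene, passed as lower. At an unadjusted p below 0.05 in that fit, 13 genes (28.9%) were lower and 0 were higher, beside 5.80% of all genes that were lower. DESeq2 without the block called 6 of the 45 as lower (13.3%, beside 2.48% of all genes), namely Nid1, Nid2, Fbln2, Mfap4, Lox and Thbs2, and limma-voom without the block called 0. With the block DESeq2 called 32 lower (71.1%, beside 14.4% of all genes) and 1 higher (2.22%, beside 7.47%), and limma-voom called 22 lower (48.9%, beside 5.89%).

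The blocked calls depended on pairs 1 and 2. Each fit without 1 of the pairs leaves 1 residual degree of freedom. Without pair 1, 0 of all genes passed, although the 23 genes had log2 fold changes between −2.34 and −0.45 (edgeR adjusted p from 0.0933 to 0.140). Without pair 2, 53 of all genes passed. Of the 45 these were Fbn1, Fbln2 and Thbs2 (edgeR adjusted p = 0.04995 for the smallest). Without pair 3, 1272 of all genes passed. Of the 45 these were 26, of which 21 were among the 23. Below, "fell" is used of genes that passed the fit with all 3 pairs and the block.

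Pair by pair, the median log2 difference between knockdown and control was −0.93 in pair 1, −1.04 in pair 2 and −0.59 in pair 3, and the median of all genes was 0.01, 0.00 and 0.03. In all 3 pairs 34 of the 45 (75.6%) were lower, beside 28.5% of all genes. Higher in all 3 pairs were 2, Lama5 and Thbs1 (4.44%, beside 31.8% of all genes). All 3 knockdowns lay below all 3 controls for 8 genes (17.8%, beside 7.44% of all genes), namely Nid1, Nid2, Fbln1, Fbln2, Mfap4, Lox, Postn and Thbs2.

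**Figure D1:**
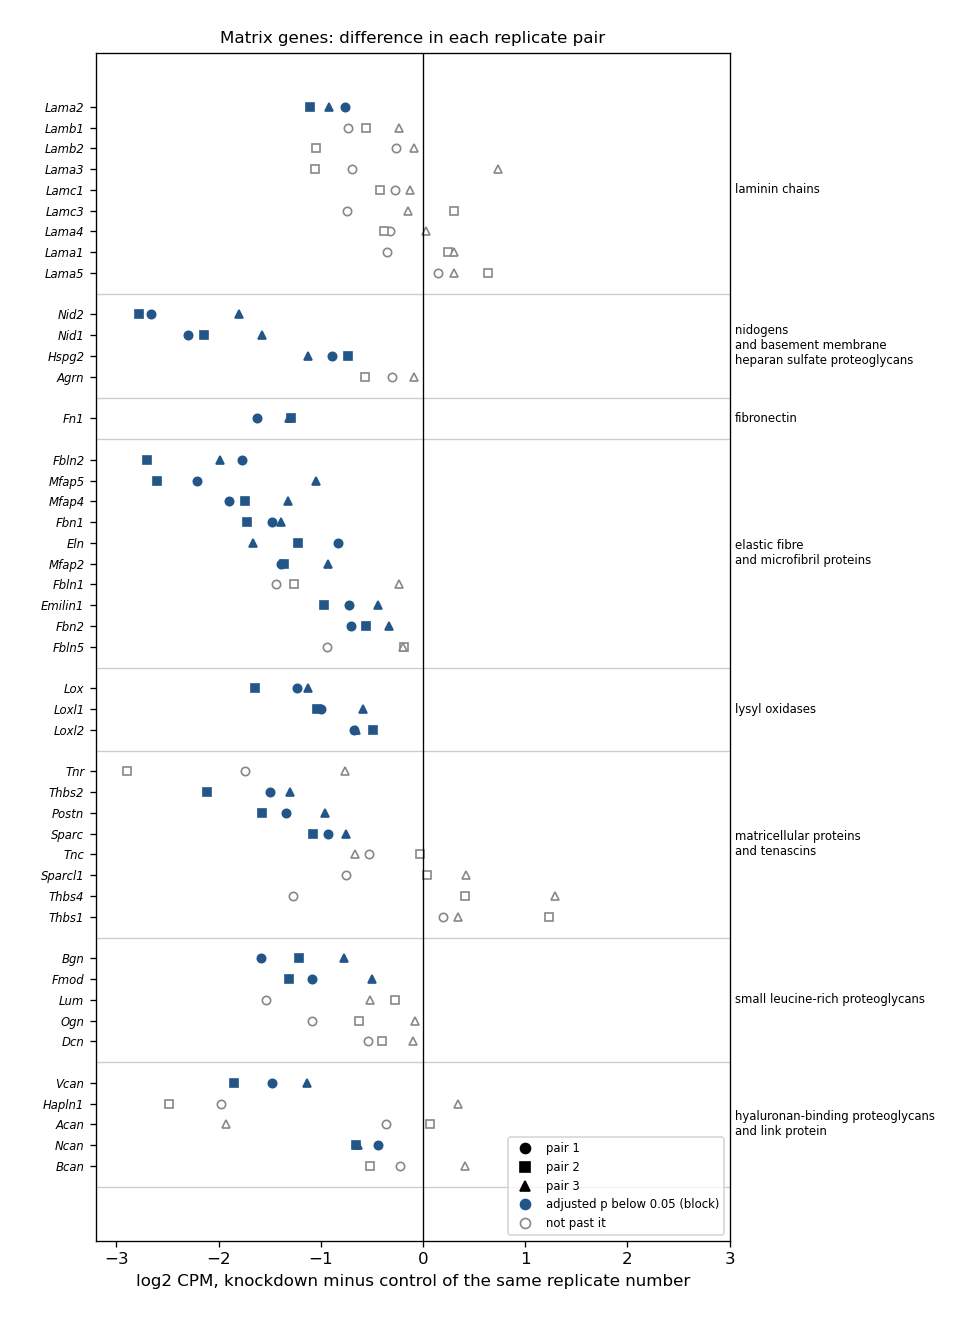
Each point is the log2 CPM of a knockdown minus that of the control with the same replicate number (x axis), for each of the 45 genes (y axis, grouped by role), with circles, squares and triangles for pairs 1, 2 and 3 and filled blue symbols for the 23 genes past an adjusted p of 0.05 in the edgeR fit with the block. Elastic fibre genes, lysyl oxidases, nidogens and perlecan lie to the left of 0 in every pair, while most laminin chains lie closer to 0.

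Levels per length, with CPM divided by the exon length in kilobases, put Sparc highest in the controls at 535 ± 169 CPM per kb (SD, n = 3). It was followed by Fn1 at 347 ± 174, Lox at 249.7 ± 69.4, Bgn at 198.5 ± 84.3, Loxl2 at 130.0 ± 26.6 and Nid1 at 106 ± 22.8 CPM per kb (SD, n = 3). Neighbours in this order differed by less than the larger of their SDs, except Sparc and Fn1, whose difference exceeded both. At the other end, Lama3, Thbs4, Acan, Hapln1 and Lamc3 had a mean below 5 CPM, among them the large perineuronal net proteoglycan aggrecan (Acan) and its link protein Hapln1. All 45 genes passed the filter on low counts.

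**Figure D2:**
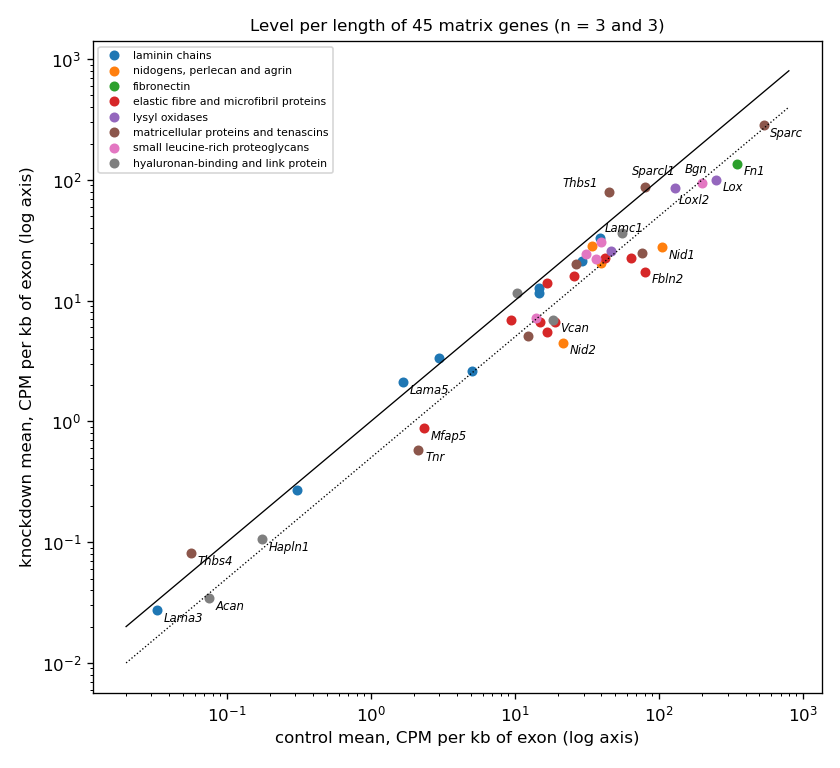
Each point is 1 of the 45 genes, with the control mean on the x axis and the knockdown mean on the y axis, both in CPM per kb of exon on log axes (n = 3 and 3), coloured by role. The solid line marks equal means and the dotted line a 2-fold lower knockdown mean. Sparc, Fn1, Lox and Bgn at the top and Nid1, Fbln2 and Nid2 below the dotted line are the genes a reader should find first, and Thbs1 lies above the solid line.

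Upstream sequences are shown for 4 of the genes that fell, because these genes moved together and differ in what lies before their starts. The RefSeq promoter table (GRCm38.p6) held 27 of the 45 genes, 14 that fell and 13 that did not pass. Of the 14, 6 had no annotated exon in the 250 bases before the start, and the 4 of these that fell furthest are printed 5′ to 3′ on the gene's strand. Capitals mark CG dinucleotides and any TATAAA on either strand.
Thbs2: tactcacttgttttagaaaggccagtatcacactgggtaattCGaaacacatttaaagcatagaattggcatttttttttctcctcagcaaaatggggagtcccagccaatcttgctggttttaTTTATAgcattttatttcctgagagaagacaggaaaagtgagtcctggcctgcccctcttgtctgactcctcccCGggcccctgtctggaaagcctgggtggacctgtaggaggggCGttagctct
Vcan: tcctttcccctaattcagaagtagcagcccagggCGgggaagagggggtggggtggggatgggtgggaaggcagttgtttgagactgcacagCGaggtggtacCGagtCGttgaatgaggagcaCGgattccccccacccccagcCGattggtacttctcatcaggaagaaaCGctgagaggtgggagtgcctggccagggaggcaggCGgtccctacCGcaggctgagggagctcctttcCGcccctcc
Postn: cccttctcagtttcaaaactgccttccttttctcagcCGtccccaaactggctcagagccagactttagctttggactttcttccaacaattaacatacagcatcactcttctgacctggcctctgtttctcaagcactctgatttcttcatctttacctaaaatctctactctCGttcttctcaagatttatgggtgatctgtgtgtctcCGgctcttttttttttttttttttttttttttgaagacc
Bgn: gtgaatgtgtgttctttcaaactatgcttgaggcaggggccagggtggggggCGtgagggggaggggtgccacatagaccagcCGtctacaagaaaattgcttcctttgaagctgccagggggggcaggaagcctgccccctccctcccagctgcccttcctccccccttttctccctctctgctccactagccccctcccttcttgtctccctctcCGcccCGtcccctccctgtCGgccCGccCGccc
They lie at chr17:14694263-14694512 on the minus strand (Thbs2), chr13:89742513-89742762 on the minus strand (Vcan), chr3:54359017-54359266 on the plus strand (Postn) and chrX:73483351-73483600 on the plus strand (Bgn). Each window precedes the start in the RefSeq table. GENCODE M21 places the start of Postn further downstream, at 54361109, so the Postn window does not adjoin that start.

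The windows of Thbs2 and Postn hold 3 CG dinucleotides each, that of Bgn 7 and that of Vcan 10. The median was 6.5 over the 14 genes that fell, 14 over the 13 that did not pass and 10 over the 16369 promoters of genes in the count table. These medians include windows that hold an annotated exon, and only 6 of the 14 hold none. The windows of Lama2 (0 CG) and Sparc (4 CG) lie inside these genes as GENCODE M21 places them. The medians thus mix sequence before and within genes, and their difference was not tested. TATAAA, searched on both strands, was in 4 of the 27, Thbs2 among them (14.8%, beside 12% of all promoters). The GC box core GGGCGG was in 8 of the 14 and 8 of the 13, beside 43.6% of all promoters. The AP-1 motif TGACTCA was in 0 of the 27, beside 4.07% of all promoters, and GGAATG, the core of the TEAD motif, was in 1 of the 14 and 3 of the 13, beside 11.7% of all promoters. These are matches of letters in 1 window per gene, and no binding was measured.

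With the block 5.40% of all genes fell, the share to set beside the count of each role group below. Among the laminin chains 1 of 9 fell. This was Lama2, the alpha 2 chain of muscle and perivascular laminin, at 36.1, 72.9 and 138 CPM in control replicates 1 to 3 and 21.2, 33.9 and 73.2 CPM in the knockdowns. Each knockdown was below the control of the same number, and the groups overlapped because replicate 1 was low and replicate 3 high in both. The log2 fold change was −0.93 (SE 0.09, edgeR adjusted p = 0.0282 with the block and 0.612 without it). Lamc1, the gamma 1 chain shared by most laminin trimers and the laminin with the highest level per length (39.0 ± 12.4 CPM per kb, SD, n = 3), was at 217, 329 and 422 CPM in the controls, against 180.1, 246 and 386 CPM in the knockdowns. Its groups overlapped almost wholly, and with the block its log2 fold change was −0.27 (SE 0.09, edgeR adjusted p = 0.106).

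The beta 1 chain Lamb1 came nearest to the threshold among the rest of the laminins, with a log2 fold change of −0.51 (SE 0.12, edgeR adjusted p = 0.0607 with the block). The chains Lama1, Lama3, Lama4, Lama5, Lamb2 and Lamc3 had blocked log2 fold changes between −0.46 and 0.36. Lama5 and Lama1 were the laminins fitted above 0. Lama3 and Lamc3 were measured at under 4 CPM in every library. The median blocked log2 fold change of the 9 chains was −0.27.

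Of the proteins that link the basement membrane networks, 3 of 4 fell. Nid1, which joins laminin to type IV collagen, was at 559.9, 776 and 868 CPM in the controls, against 114, 175 and 291 CPM in the knockdowns. All knockdowns lay far below all controls, with means of 735 ± 158 and 193 ± 89.8 CPM (SD, n = 3). Its log2 fold change was −2.01 (SE 0.17, edgeR adjusted p = 0.0282 with the block and 0.216 without it), and DESeq2 without the block called it (DESeq2 adjusted p = 0.000104).

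Its paralog Nid2 was at 96.8, 103 and 137 CPM in the controls, against 15.3, 15.03 and 39.4 CPM in the knockdowns. The groups did not overlap. With a log2 fold change of −2.41 (SE 0.22, edgeR adjusted p = 0.0282 with the block and 0.216 without it), Nid2 fell the furthest of the 45 genes. Hspg2, the core protein of perlecan, was at 279, 490.5 and 947 CPM in the controls, against 150, 296 and 434 CPM in the knockdowns. Its groups overlapped, each pair was lower, and the log2 fold change was −0.92 (SE 0.10, edgeR adjusted p = 0.0282 with the block and 0.566 without it). Agrn, the agrin of neuromuscular and vascular basement membranes, did not pass (log2 fold change −0.32, SE 0.11, edgeR adjusted p = 0.127 with the block).

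Ratios of levels per length within a library do not depend on how the library was scaled. They were chosen after the values were seen and are a description. Nid1 to Lamc1 was 3.07, 2.81 and 2.45 in control replicates 1 to 3 and 0.753, 0.850 and 0.898 in the knockdowns. Control means exceeded knockdown means for this ratio (2.78 ± 0.311 and 0.834 ± 0.0739, SD, n = 3) by far more than the spread. Nid2 to Lamc1 went with it, at 0.578 ± 0.116 and 0.132 ± 0.0330 (SD, n = 3), and Hspg2 to Lamc1 at 0.968 ± 0.292 and 0.609 ± 0.113 (SD, n = 3) also had groups that did not overlap. Agrn, Lama4, Lamb1 and Lama2 to Lamc1 had overlapping groups.

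**Figure D3:**
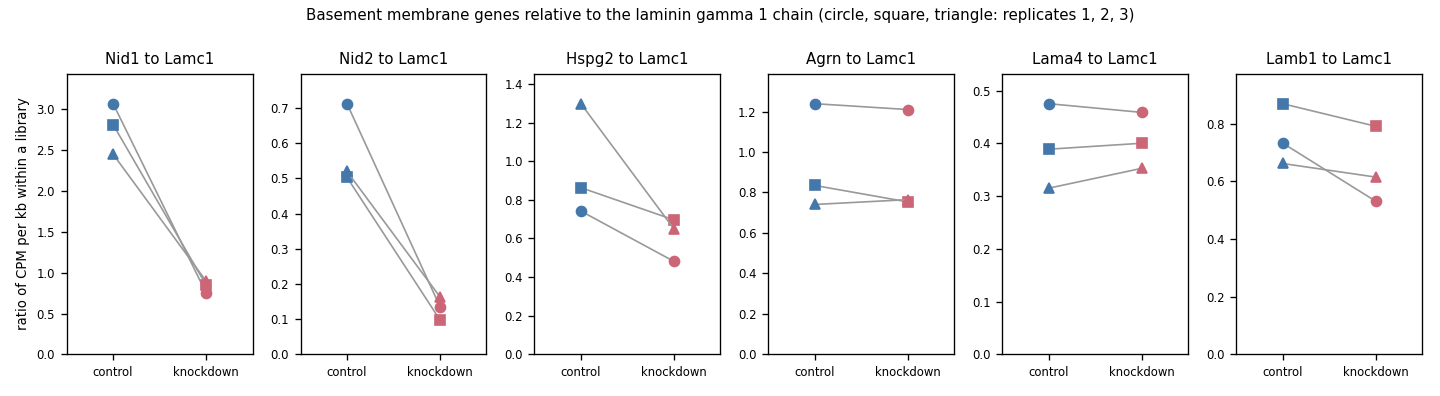
Each panel gives, for each library, the level per length (CPM per kb) of a basement membrane gene divided by that of Lamc1 (y axis, starting at 0), for controls in blue and knockdowns in red, with lines joining libraries of the same replicate number. The nidogen panels separate the groups, with Nid1 to Lamc1 at 2.45 to 3.07 in the controls and 0.753 to 0.898 in the knockdowns, and the agrin and laminin panels do not.

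Fibronectin, the glycoprotein on which many cells assemble their first matrix, had the most counts of the 45 genes. Fn1 was at 1831, 4491 and 5823 CPM in the controls, against 595, 1837 and 2343 CPM in the knockdowns. Control replicate 1 was about level with knockdown replicate 2 and below knockdown replicate 3, so the groups overlapped. The log2 differences in pairs 1 to 3 were −1.62, −1.29 and −1.31. The log2 fold change was −1.41 (SE 0.14, edgeR adjusted p = 0.0282 with the block and 0.508 without it).

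Of the elastic fibre and microfibril genes, the largest role group, 8 of 10 fell (beside 5.40% of all genes). All 10 were lower in all 3 pairs (beside 28.5% of all genes). Fbn1, the fibrillin that forms most microfibrils, was at 373.5, 883 and 1088 CPM in the controls, against 134.5, 268 and 416 CPM in the knockdowns. Only knockdown replicate 3 reached the level of control replicate 1. Its log2 fold change was −1.53 (SE 0.10, edgeR adjusted p = 0.0282 with the block and 0.422 without it).

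Fbln2, a fibulin that binds fibronectin, nidogen and fibrillin, was at 254, 640.4 and 632 CPM in the controls, against 74.3, 98.7 and 159 CPM in the knockdowns. The groups did not overlap and the log2 fold change was −2.15 (SE 0.20, edgeR adjusted p = 0.0282 with the block and 0.241 without it). Fbn2, the fibrillin of developing tissue, was at 41.5, 112 and 218 CPM in the controls, against 25.5, 75.97 and 173 CPM in the knockdowns. Its replicates spread far more than its groups, and it fell the least of the 23 (log2 fold change −0.53, SE 0.09, edgeR adjusted p = 0.0436 with the block and 0.872 without it).

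Eln, which encodes tropoelastin, the rubber-like core of elastic fibres, was at 22.1, 90.6 and 347 CPM in the controls, against 12.4, 38.7 and 109.6 CPM in the knockdowns. The highest control was 15.7 times the lowest, the widest spread of the 45 genes, and the groups overlapped. With the block the log2 fold change was −1.25 (SE 0.17, edgeR adjusted p = 0.0324), and without it the test gave an edgeR adjusted p of 0.652.

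The microfibril-associated genes Mfap2, Mfap4 and Mfap5 and the elastin-binding Emilin1 also fell, with blocked log2 fold changes of −1.23, −1.65, −1.93 and −0.71 (edgeR adjusted p = 0.503, 0.354, 0.650 and 0.515 without the block). Mfap4 was the one of these whose groups did not overlap. The fibulins Fbln1 and Fbln5 did not pass (log2 fold change −0.98 with edgeR adjusted p = 0.0742, and −0.44 with edgeR adjusted p = 0.154, both with the block). The ratio of Fbln2 to Fbln1 per length, chosen after the values were seen, was 1.08, 2.06 and 2.46 in the controls and 0.858, 0.760 and 0.730 in the knockdowns, without overlap.

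All 3 lysyl oxidases, which cross-link collagen and elastin, fell. Lox was at 828, 1277 and 1475 CPM in the controls, against 351, 407 and 678 CPM in the knockdowns. The groups did not overlap, the log2 fold change was −1.34 (SE 0.14, edgeR adjusted p = 0.0282 with the block and 0.315 without it), and DESeq2 without the block called it (DESeq2 adjusted p = 0.00886). Loxl1, which acts on elastin, was at 77.9, 206 and 174 CPM in the controls, against 39.0, 100.4 and 116 CPM in the knockdowns.

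Control replicate 1 was the library that made the Loxl1 groups overlap. The log2 fold change of Loxl1 was −0.87 (SE 0.11, edgeR adjusted p = 0.0310 with the block and 0.580 without it). Loxl2 was at 546, 828 and 734 CPM in the controls, against 343, 588 and 465.5 CPM in the knockdowns, with knockdown replicate 2 above control replicate 1. It fell less than Lox, by 0.61 on the log2 scale (SE 0.09, edgeR adjusted p = 0.0336 with the block and 0.489 without it). The difference between Lox and Loxl2 was not tested.

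**Figure D4:**
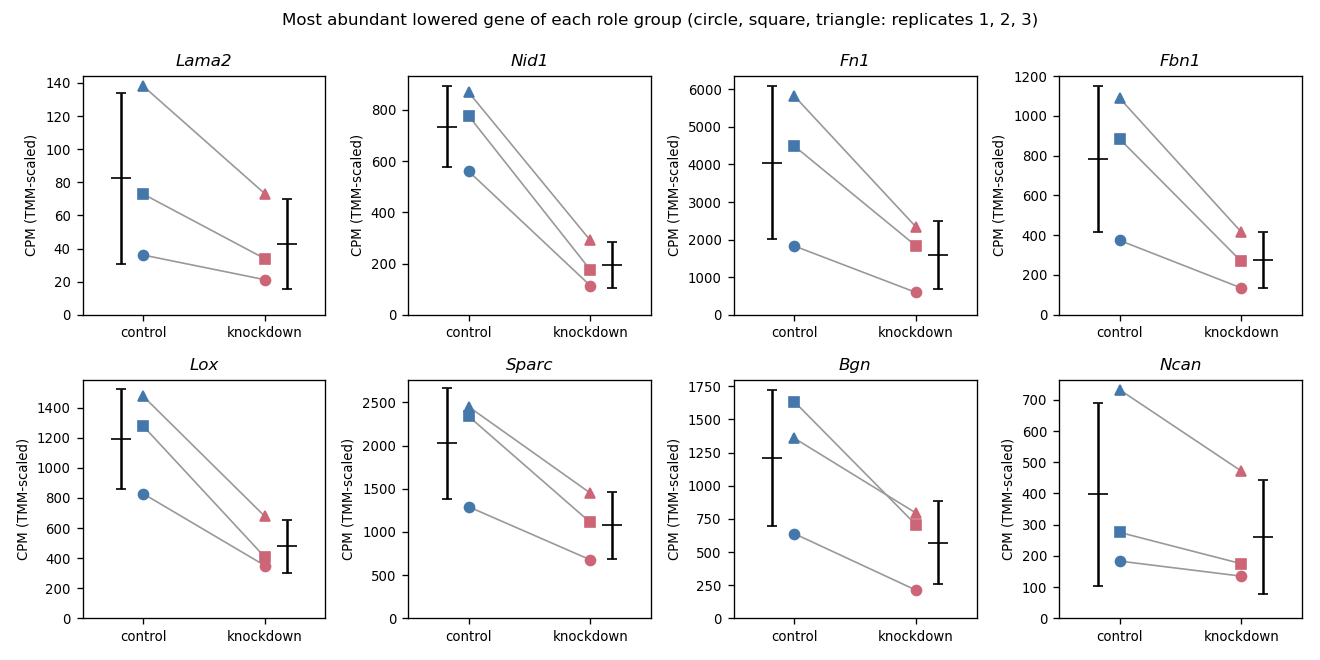
CPM (TMM-scaled, y axes starting at 0) in each library for the gene with the highest mean among those that fell in each of the 8 role groups, with circles, squares and triangles for replicates 1, 2 and 3, lines joining libraries of the same number and bars for the mean ± SD of each group (n = 3). Each line runs downward, which choosing among genes that fell in the blocked fit favours. Nid1 and Lox have groups that do not overlap.

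Matricellular proteins, which modify how cells attach to matrix, and the tenascins divided. Sparc, a collagen-binding protein, was at 1291, 2338 and 2449 CPM in the controls, against 678, 1111 and 1451 CPM in the knockdowns. Control replicate 1 lay inside the range of the knockdowns, and the log2 fold change was −0.92 (SE 0.11, edgeR adjusted p = 0.03002 with the block and 0.472 without it). Thbs2, an antiangiogenic thrombospondin, was at 280.4, 673 and 662 CPM in the controls, against 99.1, 155 and 268 CPM in the knockdowns.

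For Thbs2 all knockdowns lay below all controls, by a log2 fold change of −1.64 (SE 0.18, edgeR adjusted p = 0.0282 with the block and 0.365 without it). Postn, periostin, was at 66.6, 136.5 and 121 CPM in the controls, against 26.2, 45.9 and 62.1 CPM in the knockdowns. Its groups did not overlap either, though knockdown replicate 3 came within 5 CPM of control replicate 1. The log2 fold change was −1.29 (SE 0.13, edgeR adjusted p = 0.0282 with the block and 0.383 without it).

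The other 5 genes of this role group did not pass. Thbs1, named here after its values were seen, was at 168, 400.2 and 252 CPM in the controls, against 193, 941 and 319 CPM in the knockdowns. Each knockdown was above the control of the same number, most of all in pair 2. The blocked log2 fold change was 0.59 (SE 0.22, edgeR adjusted p = 0.143). DESeq2 with the block called Thbs1 higher (DESeq2 adjusted p = 0.0363), the one gene of the 45 it called in that direction. The ratio of Thbs2 to Thbs1 per length was 1.44, 1.46 and 2.28 in the controls and 0.446, 0.143 and 0.729 in the knockdowns, without overlap.

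Tnr, the tenascin of brain perineuronal matrix, had a large but variable difference, with log2 differences of −1.74, −2.895 and −0.76 in pairs 1 to 3 and a blocked log2 fold change of −1.80 (SE 0.43, edgeR adjusted p = 0.0661). Tnc, Sparcl1 and Thbs4 had blocked log2 fold changes of −0.41, −0.10 and 0.22. Sparcl1, an astrocyte-secreted relative of Sparc, was high in replicate 3 of both groups, at 391 and 521 CPM.

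Small leucine-rich proteoglycans bind collagen fibrils and growth factors, and 2 of 5 fell. Bgn, biglycan, was at 639, 1635 and 1359 CPM in the controls, against 213, 707 and 795 CPM in the knockdowns. Control replicate 1 lay below knockdown replicates 2 and 3, and the log2 fold change was −1.19 (SE 0.18, edgeR adjusted p = 0.0362 with the block and 0.540 without it). Fmod, fibromodulin, was at 12.5, 76.25 and 49.7 CPM in the controls, against 5.86, 30.8 and 35.2 CPM in the knockdowns.

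Replicate 1 was again the lowest of both groups for Fmod, and the log2 fold change was −0.96 (SE 0.17, edgeR adjusted p = 0.0453 with the block and 0.705 without it). Decorin (Dcn), lumican (Lum) and osteoglycin (Ogn) did not pass, with blocked log2 fold changes of −0.34, −0.78 and −0.59 (edgeR adjusted p = 0.0953, 0.117 and 0.117), but were lower in all 3 pairs. Dcn was highest in control replicate 1, at 271 CPM, the reverse of the order of Bgn.

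Of the hyaluronan-binding proteoglycans and their link protein, 2 of 5 fell. Vcan, the versican of developing and vascular matrix, was at 159.7, 286 and 353 CPM in the controls, against 57.5, 79.4 and 160.5 CPM in the knockdowns. Knockdown replicate 3 just reached control replicate 1, and the log2 fold change was −1.49 (SE 0.15, edgeR adjusted p = 0.0282 with the block and 0.392 without it). Ncan, the neurocan of brain matrix, was at 183, 275 and 732 CPM in the controls, against 135, 175 and 472 CPM in the knockdowns.

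The Ncan groups overlapped widely and its log2 fold change was −0.58 (SE 0.08, edgeR adjusted p = 0.0343 with the block and 0.773 without it). Vcan to Ncan per length, again chosen after the values were seen, was 0.434, 0.516 and 0.240 in the controls and 0.212, 0.226 and 0.169 in the knockdowns. These groups did not overlap. Bcan, the brevican of astrocytes and neurons, had a blocked log2 fold change of −0.11 (SE 0.19, edgeR adjusted p = 0.722), and Acan and Hapln1 had wide errors around −0.91 and −1.30 (SE 0.50 and 0.75).

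Replicate number was a large source of variation in these genes. Replicate 1 was the lowest control for 36 of the 45 genes and the lowest knockdown for 37, and both for 33. Replicate 3 was the highest control for 29 and the highest knockdown for 40. The median ratio of the highest to the lowest control was 2.40.

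In these bulk libraries fewer cells of a type and less RNA per cell cannot be told apart, and several markers of other cells were detected. Without the block 0 of the 78 distinct marker genes passed (edgeR adjusted p from 0.216 to 0.992). At an unadjusted p below 0.05 in that fit 7 were lower and 2 higher, beside 5.80% and 4.75% of all genes. DESeq2 without the block called 2 lower and 1 higher, beside 2.48% and 1.13% of all genes. Granule neuron markers summed to 4917 to 6931 CPM in the controls, against 5135 to 7513 CPM in the knockdowns. Of 14, 1 fell (Etv1) and 2 rose (Tubb3 and Barhl1) with the block, beside 5.40% and 2.58% of all genes. The 20 markers of pericytes, smooth muscle and fibroblasts, which hold no matrix gene, summed to 852 to 2288 CPM in the controls, against 571 to 1413 CPM in the knockdowns. Of these 8 fell, among them Acta2, Tagln and Pdgfrb (log2 fold changes −1.01, −0.70 and −1.34 with the block), and 0 rose. The shares of all genes were 5.40% and 2.58%. The other 12 did not pass. Among them 4 were fitted above 0, Rgs5, Kcnj8, Slc6a13 and Mcam (log2 fold changes 0.42, 0.22, 0.24 and 0.54 with the block).

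Astrocyte and Bergmann glia markers summed to 1381 to 3430 CPM in the controls, against 904 to 3626 CPM in the knockdowns, with 1 of 12 lower (Gja1, log2 fold change −1.76). Oligodendrocyte lineage markers summed to 259.6 to 1319 CPM and 177 to 985 CPM, with 3 of 12 lower, among them Ugt8a and Cspg4, which is also 1 of the 8 that fell on the pericyte list. Endothelial markers summed to 95.8 to 168 CPM and 75.4 to 185 CPM, with 0 of 12 past the test (Esam had the smallest p) and Cldn5, Erg and Sox17 at 0 in at least 1 library. Microglia markers summed to 43.8 to 112 CPM and 9.94 to 52.6 CPM, with 1 of 10 lower (Tmem119, log2 fold change −1.41) and C1qb, Cx3cr1 and Aif1 at 0 in at least 1 library. Their median log2 difference was −4.33 in pair 1, where the sum was 112 CPM in the control and 9.94 CPM in the knockdown. It was −0.20 in pair 2 and −0.23 in pair 3. Of all genes 5.40% fell and 2.58% rose with the block. The part of these cell types in the lower matrix levels was not tested.

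Each gene was also set against the summed pericyte, smooth muscle and fibroblast markers of its own library. Genes with high levels weigh most in this sum. Acta2 and Tagln, which both fell, had the highest means of the 20 markers over all libraries, 373 and 256 CPM. The sum is thus not a measure of the number of these cells. It was also lower in the knockdown of each pair, which raises the ratio of any gene that does not fall with it. For this ratio all 3 knockdowns lay below all 3 controls for 11 of the 45 genes (24.4%, beside 0.788% of all genes), namely Nid1, Nid2, Fn1, Fbn1, Fbln2, Mfap4, Postn, Thbs2, Tnr, Bgn and Vcan. They lay above for 2, Lama1 and Thbs1 (4.44%, beside 3.47% of all genes), and overlapped for 32. Of the 11 genes, 10 had fallen in these same data, so the ratio is not a separate test of their fall. Nid1 was 65.7%, 33.9% and 39.9% of the marker sum in the controls and 19.9%, 14.6% and 20.6% in the knockdowns. Sparc, at 151.5%, 102% and 113% and then 119%, 92.7% and 103%, overlapped, as did Lox, all 3 laminins with the highest CPM (Lamc1, Lamb1 and Lama4) and Ncan.

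Other genes of matrix were read from lists drawn up by function. Without the block 0 of their 114 tested genes passed (edgeR adjusted p from 0.115 to 0.996). At an unadjusted p below 0.05 in that fit 29 were lower (beside 5.80% of all genes) and 3 higher (beside 4.75%), and DESeq2 called 13 lower and 2 higher (beside 2.48% and 1.13%). Of 8 basement membrane collagens 0 passed the test with the block, and 3 were lower at an unadjusted p below 0.05 (beside 18.2% of all genes). DESeq2 with the block called 3 of the 8 lower (beside 14.4%). Col4a2, a main chain of type IV collagen, had the smallest p (log2 fold change −0.54, SE 0.11, edgeR adjusted p = 0.0506 with the block). Of 35 other matrix glycoproteins 8 fell and 0 rose (beside 5.40% and 2.58% of all genes). The most abundant of the 8 were Spock2, a testican of brain, Efemp2, a fibulin needed for elastic fibres, and Ltbp2, a microfibril-binding protein (log2 fold changes −0.92, −0.93 and −1.53 with the block).

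Of 28 matrix receptors 7 fell and 0 rose (beside 5.40% and 2.58% of all genes). The integrin subunits Itgav, Itga5 and Itgb5, which form receptors for fibronectin and vitronectin, had blocked log2 fold changes of −1.20, −1.16 and −0.74. Of 23 matrix proteases and inhibitors 7 fell and 0 rose (beside the same 5.40% and 2.58%). Those that fell included the gelatinase Mmp2 (−1.09), its membrane-bound activator Mmp14 (−1.17) and the inhibitor Timp1 (−1.65, all log2 fold changes with the block). Of 20 tested genes of hyaluronan and glycosaminoglycan synthesis 3 fell and 0 rose (beside 5.40% and 2.58% of all genes). The 3 were the heparan sulfate polymerase Ext2, the sulfotransferase Hs2st1 and the UDP-glucose dehydrogenase Ugdh, with blocked log2 fold changes of −0.57, −0.40 and −0.50. Has3, a hyaluronan synthase named here after its values were seen, was higher in all knockdowns than in all controls, at 4.47, 3.22 and 3.52 CPM in the controls, against 10.8, 25.0 and 9.95 CPM in the knockdowns. Its log2 fold change was 1.89 (SE 0.37, edgeR adjusted p = 0.0504 with the block and 0.239 without it), and DESeq2 without the block called it higher (DESeq2 adjusted p = 0.000446). The 45 genes had a median blocked log2 fold change of −0.87, and the laminin chains among them −0.27, beside 0.02 for all genes. It was −0.41 for the basement membrane collagens, −0.44 for the other glycoproteins and −0.49 for the receptors. The proteases and inhibitors had −0.46 and glycosaminoglycan synthesis −0.30. The markers of pericytes, smooth muscle and fibroblasts had −0.62.

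Exons of 15 of the 45 genes overlap an annotated gene on the opposite strand in GENCODE M21 (GRCm38), among them 10 that fell (Lama2, Nid1, Nid2, Fn1, Fbn1, Fbn2, Eln, Mfap4, Lox and Loxl2). The libraries were prepared with a stranded kit, and the labels do not give the annotation of the counting or whether it used strand. Whether reads of such neighbours entered the counts of these genes is therefore not known.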

How the data were processed

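The mRNA of 6 libraries was sequenced with a stranded kit and 50 bp single-end reads, per the labels' protocols. The authors deposited raw counts (whole numbers of reads for each gene) in 1 table for all samples. The submitters' processing notes name Trimmomatic, TopHat2 and HTSeq, further edgeR and DESeq2, and build mm9. Not given in the sources used here are versions, annotation and strand setting. Columns were matched to samples by description. Tallies that name no gene (28.6% to 34.8% of counts) were left out of library sizes and tests. Libraries of a group differed by more than sampling noise in every pair.

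Counts were fitted with edgeR 4.0.16 in R 4.3.3 (filterByExpr with minimum count 10 and minimum total 15, 15731 genes, TMM factors, quasi-likelihood F test, Benjamini-Hochberg over all genes tested, threshold 0.05). Log2 CPM used a prior count of 2. Each SE is |log2 fold change| over the root of F. The planned fit had no replicate term. Deviations from group means correlated at 0.701 to 0.772 for libraries of the same number and at −0.532 to −0.135 for others, partly since the deviations of a group add up to 0. The labels state no pairing. The block was used because of these correlations, and where values from it stand alone, the gene or list did not pass without it. Exon lengths and overlaps are from GENCODE M21 (GRCm38), matched to the counts by name alone, and promoters from RefSeq. The fits were tested on simulated data in which libraries of the same number shared deviations. That test cannot show whether the libraries were truly paired.

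The lists, like the members, were chosen with earlier results of these data known. Values in every library are given for genes called in either fit, up to 4 per role by mean CPM, and for the highest per length of each role. From other lists up to 3 called genes with the highest mean CPM are named, or else that with the smallest p; a gene that this rule picks is not reported here. Values of Thbs1, Tnr, Sparcl1 and Dcn in single libraries, and the ratios, were added after the values were seen. Alternatives tried were RLE factors, upper-quartile factors, scaling to library totals alone, testing without a filter, a mean of at least 5 CPM, DESeq2 1.42.0, limma-voom (limma 3.58.1), the replicate block and leaving out each library or pair.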

Additional observations from a re-analysis of the deposited data

How the results depend on the processing

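Counts were fewest for the 5 genes with a mean under 5 CPM, and every test rests on 3 replicates a group, with 2 residual degrees of freedom in the blocked fit. Without the block 1 gene of all tested passed, and 0 with library totals alone or without any 1 library, 567 with DESeq2 and 1256 with the replicate block. The count of the 45 genes that were lower was 0 without the block, 6 with DESeq2 and 23 with the replicate block, and it stayed at 0 under the other scalings, filters, limma-voom and leave-one-out fits. Their median log2 fold change, −0.73, ranged from −1.27 (without knockdown replicate 3) to −0.46 (without control replicate 3). With the block 23 genes also passed under RLE factors, upper-quartile factors, no filter and the filter at 5 CPM, the same 23 in each, and 20 with library totals alone (without Fbn2, Emilin1 and Fmod), 22 with limma-voom and 32 lower and 1 higher with DESeq2, which called 3440 of all genes. All genes with the block split into 850 lower and 406 higher with TMM factors and 553 and 723 with library totals alone, where the median of all genes was 0.09. Leaving out a pair gave 0 to 26 of the 45 and 0 to 1272 of all genes, with 53 of all genes and 3 of the 45 without pair 2. Signs turned for genes that never passed, Sparcl1 (−0.10 with limma-voom and −0.10 with the block, against 0.12) and Bcan (−0.0825 and −0.11, against 0.16). Leaving out 1 library without the block gave log2 fold changes from −1.11 to 0.90 for Bcan, −0.62 to 0.0398 for Dcn, −0.66 to 0.21 for Fbln5, −1.29 to 0.24 for Fbn2, −0.23 to 0.53 for Lama1, −1.13 to 0.0720 for Lamb2, −1.27 to 0.74 for Lamc3, −1.36 to 0.17 for Ncan, −1.225 to 0.0832 for Ogn, −0.92 to 0.68 for Sparcl1, −0.11 to 1.205 for Thbs1 and −0.40 to 0.98 for Thbs4. Leaving out 1 pair with the block gave −0.38 to 0.0800 for Bcan, −0.0578 (without replicate 3; −0.0378 without replicate 2) to 0.27 for Lama1, −0.46 to 0.0458 for Lamc3, −0.37 to 0.23 for Sparcl1 and −0.55 to 1.015 for Thbs4. Fbn2 and Ncan, which fell with the block, are in the first of these sets and not in the second. Of the other values of single genes, 570 kept their direction and side of the threshold without the block and 29 came to pass, and with it 375 kept both, 15 came to pass and 49 no longer passed. The cause was not tested.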
